A study of Mus musculus with 31 samples.

Results

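The bile acid genes described here are 10 genes whose proteins make bile acids, conjugate them or take them up. They were chosen by name, with earlier results of these data known. Every probe of the array carrying 1 of these names was used, which gave 15 probes for 10 of the 23968 gene names kept. All 10 genes were measured, and all 15 probes passed the filter on dim spots and were present in the deposited table. The genes are Cyp7a1, Cyp7b1, Cyp8b1, Cyp27a1, Hsd3b7 and Akr1d1 for synthesis, Slc27a5 and Baat for conjugation, and Slc10a1 and Slc10a2 for uptake.

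The liver makes bile acids from cholesterol along a route that starts with Cyp7a1 and along another that starts with Cyp27a1 and goes on through Cyp7b1. The ring is then changed by Hsd3b7, Cyp8b1 and Akr1d1, the acid is joined to taurine or glycine by Slc27a5 and Baat, and most bile acids return from the gut to the hepatocyte, which takes them up through Slc10a1. Bile acids hold back their own synthesis through the nuclear receptor FXR (Nr1h4), and Cyp7a1 has a daily rhythm that follows clock output factors such as Dbp.

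The study examined livers of male C57BL6/J mice that lack ChREBP, a transcription factor activated by sugar and encoded by Mlxipl. The first group held 7 total ChREBP-KO mice, which lack both the long α form and the short β form in all tissues, and 8 WT littermates stood beside them. The other line held 8 ChREBPβ-deficient mice, made with CRISPR by deleting the exon of Mlxipl that starts the β form in the whole body, and 8 WT littermates. All mice were fasted for 24 h and then had food and water with 20% glucose for 18 h before tissue was taken. The study drew on several litters in each protocol, but the litters of each group here are not stated. Lights were on from 8 am to 8 pm. The study names about 8 am as the time of blood sampling, while ages and the hour at which these livers were taken were not given in the sources used here.

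RNA of each mouse was put on 1 one-colour Agilent array, and each spot of an array carries a probe of 60 bases whose signal grows with the RNA bound. Values are log2 signals after quantile normalization, so that a difference of 1 is a 2-fold change. Between 34131 and 38612 spots per array were well above background, and precision is limited by how many arrays each group has. Levels of different probes are not compared with each other, and where signals of a marker list are averaged or summed the probes are not weighted. Where 1 value per gene is given it belongs to the probe with the highest mean signal, and each probe was tested by itself. A gene is called when limma gives an adjusted p under 0.05 for at least 1 of its probes.

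Mlxipl, the targeted gene, was read first by its brightest probe, A_55_P2119957 on chr5:135613705-135613764 of mouse build mm9. Its lowest, median and highest log2 signals were 13.89, 14.11 and 14.30 in total ChREBP-KO mice and 15.14, 15.25 and 15.48 in their WT littermates. In the ChREBPβ line they were 14.40, 14.64 and 14.84 in deficient mice and 14.88, 15.06 and 15.33 in WT littermates. In both lines every mouse lacking the gene or the exon was below every WT littermate. The limma difference was -1.16 in the total line (adjusted p = 8.05e-13, lower in 7 of 7 mice) and -0.45 in the ChREBPβ line (adjusted p = 0.0152, lower in 8 of 8 mice). Of its other probes, A_55_P2728555, which shares 29 bases with probes or promoters of other genes, fell in the total line (-0.59, adjusted p = 0.00313, 7 of 7 mice) and missed the threshold in the ChREBPβ line (-0.46, adjusted p = 0.909, 8 of 8 mice). A_55_P2045158, which shares 21 bases with a promoter of another gene, was level in both lines (-0.05 and -0.06). The position of A_55_P2119957 relative to the deleted part of the total ChREBP-KO allele is not given in the files.

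In total ChREBP-KO livers 8 of the 10 bile acid genes were called. Cyp8b1, the 12α-hydroxylase that sets the share of cholic acid, fell most. Slc10a1, the uptake carrier of the hepatocyte, fell with 1 of its 2 probes. Slc10a2, a related carrier known from the gut and bile ducts, rose, and so did Cyp7a1, Cyp27a1, Hsd3b7, Akr1d1 and Slc27a5, most by small steps. The 6 genes that rose stand against 17.3% of all gene names called higher in this comparison, and the 2 that fell stand against 17.1% called lower, with 33.9% called in either direction. Of the 15 probes, 10 had an unadjusted p under 0.05, against 38.3% of all probes. Genes whose groups did not overlap were Slc27a5 and Slc10a1, with 1 probe each, against 9.20% of all gene names and 7.40% of all probes. The median difference over the 10 genes was 0.24, against 0.0078 over all gene names. Since these genes and the other lists were chosen with earlier results known, the shares over all genes give a scale and no test. In bulk tissue, fewer cells of a type and less RNA per cell cannot be told apart.

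Cyp8b1 had the largest difference of the synthesis genes. Its log2 signal (A_51_P266618) was 8.30 at the lowest, 8.95 at the median and 9.43 at the highest in total ChREBP-KO mice, and 9.30, 11.17 and 11.37 in WT littermates. The WT mouse with replicate number 2 was the one at 9.30, and the other 7 WT mice lay above every KO mouse, between 10.65 and 11.37. The limma difference was -1.92 (95% confidence interval -2.43 to -1.42, adjusted p = 5.37e-07), a 3.79-fold lower signal, and 7 of 7 KO mice were below the WT median. Without that WT mouse the difference was -2.15 (adjusted p = 1.74e-09). Each scan day by itself gave -1.83 (adjusted p = 0.00430) and -1.96 (adjusted p = 2.03e-04).

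Cyp7a1, the rate-limiting enzyme of the main route, was read by 2 probes. The brighter probe, A_52_P84027, gave 9.36, 10.09 and 11.85 in total ChREBP-KO mice and 8.67, 9.38 and 9.92 in WT littermates. The groups overlapped, and the KO mouse with replicate number 4 stood highest at 11.85. This probe missed the threshold in limma when all 4 groups were in the model, with a difference of 1.01 (interval 0.11 to 1.90, adjusted p = 0.0855) and 6 of 7 KO mice above the WT median. With the 2 groups of the line alone it passed (adjusted p = 0.0206), and so it did by the exact two-sided Mann-Whitney test (adjusted p = 0.0300), while its adjusted p reached 0.665 with Dbp in the model. The dim probe A_55_P2600274 rose by 0.59 (adjusted p = 0.0142, 7 of 7 mice above the WT median), but it was well above background in only 4 of 7 KO and 7 of 8 WT mice. No RefSeq entry is given for this probe, and it carries the name Cyp7a1 by the annotation of the array. Its call was lost with the processed signal of the scanner software and with Dbp in the model (0.46). It was also lost within each scan day (0.68 and 0.47). Over the alternatives the difference ran from 0.35 to 0.98, and adjusted p reached 0.140. The call of Cyp7a1 thus depends on the probe and on the processing.

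The other synthesis genes moved less. Cyp27a1, the 27-hydroxylase of the other route, was 10.38, 10.84 and 11.16 in total ChREBP-KO mice and 10.06, 10.52 and 10.67 in WT littermates, a rise of 0.36 (limma, adjusted p = 0.0115, 6 of 7 mice). Hsd3b7, the steroid dehydrogenase that acts on the ring, was 16.19, 16.46 and 16.55 beside 15.86, 16.22 and 16.30, a rise of 0.27 (limma, adjusted p = 0.00637, 6 of 7 mice). Both overlapped with the WT mice. On the second scan day alone Cyp27a1 differed by 0.17 (adjusted p = 0.452) and Hsd3b7 by 0.14 (adjusted p = 0.290), against 0.53 (adjusted p = 0.0309) and 0.40 (adjusted p = 0.0167) on the first. Akr1d1, the 5β-reductase, rose with both probes, by 0.47 for A_66_P114758 (limma, adjusted p = 0.0224, 6 of 7 mice) and by 0.45 for A_66_P113096 (adjusted p = 0.0133, 6 of 7 mice). Its brighter probe gave 9.58, 10.44 and 11.03 in KO mice and 9.55, 10.02 and 10.17 in WT littermates. The KO mouse with replicate number 5 was the lowest, and the groups overlapped. The call of A_66_P114758 was lost without WT replicate 4 (0.42, adjusted p = 0.0523), without KO replicate 4 (0.36, adjusted p = 0.0736) or without KO replicate 8 (0.41, adjusted p = 0.0562). Within the scan days A_66_P114758 gave 0.55 (adjusted p = 0.162) and 0.40 (adjusted p = 0.155), while A_66_P113096 gave 0.39 (adjusted p = 0.243) and 0.52 (adjusted p = 0.0461). By the exact two-sided Mann-Whitney test the calls of Akr1d1 (adjusted p = 0.120 and 0.0558) and of Cyp27a1 (adjusted p = 0.120) were lost, and that of Hsd3b7 was kept (adjusted p = 0.0300). With the 2 groups of the line alone limma lost A_66_P114758 (adjusted p = 0.0540) and kept A_66_P113096 (adjusted p = 0.0412), the probe that was well above background in 6 of 7 KO mice.

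Cyp7b1, the oxysterol 7α-hydroxylase, was not called. Its brighter probe A_51_P461429 read 14.57, 14.75 and 15.43 in total ChREBP-KO mice and 14.08, 14.85 and 15.57 in WT littermates, with a difference of 0.12 (interval -0.35 to 0.59, limma adjusted p = 0.749, 3 of 7 KO mice above the WT median). The WT mice spanned more than the KO mice, at both ends. The second probe gave 0.13 (adjusted p = 0.727, 3 of 7 mice).

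Of the conjugation genes, Slc27a5, the ligase that activates bile acids with coenzyme A, rose. Its log2 signal was 16.86, 16.94 and 17.07 in total ChREBP-KO mice and 16.56, 16.77 and 16.86 in WT littermates. Every KO mouse was above every WT littermate, though the gap was narrow. The difference was 0.21 (interval 0.12 to 0.30, limma adjusted p = 4.27e-04, 7 of 7 mice), and it was 0.23 (adjusted p = 0.0310) and 0.19 (adjusted p = 0.0670) within the scan days. Baat, which joins the activated acid to taurine or glycine, was not called. Its brighter probe A_52_P43150 gave 11.61, 11.81 and 12.32 in KO mice and 11.51, 11.74 and 12.09 in WT littermates, with a difference of 0.06 (limma adjusted p = 0.673, 5 of 7 mice above the WT median). The second Baat probe differed by less than 0.01, and it was well above background in 4 of 7 KO and 6 of 8 WT mice.

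Of the uptake genes, Slc10a1 gave different results by its 2 probes. Probe A_66_P133814 read 13.81, 14.24 and 14.32 in total ChREBP-KO mice and 14.39, 15.10 and 15.48 in WT littermates. All KO mice were below all WT mice, the lowest of which was again WT replicate 2. The difference was -0.86 (interval -1.16 to -0.57, limma adjusted p = 3.24e-05, 7 of 7 mice), and it was -0.79 (adjusted p = 0.0261) and -0.92 (adjusted p = 9.37e-04) within the scan days. The brighter probe A_55_P1954987 read 18.23, 18.25 and 18.32 in KO mice and 18.14, 18.28 and 18.31 in WT littermates, with a difference under 0.01 (interval -0.08 to 0.08, adjusted p = 0.997). Its values filled a narrow band near the top of the scale in all 4 groups.

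The 2 probes of Slc10a1 were compared with other genes because their results differ, by looking for stretches of 20 bases shared with a probe or promoter of another gene. Probe A_55_P1954987 carries RefSeq entries of 4 genes, namely 4930402H24Rik, Med16, Slc10a1 and Spc24. It shares such stretches with probes of 2 other genes, Nxnl1 and Sppl2a, and with promoters of 3, and 36 of its bases are covered. Probe A_66_P133814 (chr12:82054180-82054239, minus strand, mm9) shares none, and neither does any of the other 13 probes of the 10 genes. How much of the signal of A_55_P1954987 comes from Slc10a1 was not tested. The sequence of A_66_P133814, the probe whose signal fell, is shown.
A_66_P133814: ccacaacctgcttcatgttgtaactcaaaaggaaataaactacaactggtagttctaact

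Slc10a2, the apical sodium-dependent carrier, rose in total ChREBP-KO livers. Its log2 signal was 11.39, 11.68 and 12.31 in KO mice and 10.29, 10.80 and 12.004 in WT littermates. WT replicate 2 was the mouse at 12.004, and the other 7 WT mice, the highest of them at 11.16, lay below every KO mouse. The difference was 0.87 (interval 0.46 to 1.29, limma adjusted p = 0.00145, 7 of 7 mice above the WT median), and it was 0.60 (adjusted p = 0.170) on the first scan day and 1.22 (adjusted p = 0.00475) on the second.

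With scan day as a term of the model the same 8 genes were called in the total line. Cyp8b1 was then -1.89 (adjusted p = 2.86e-07), Slc10a1 by A_66_P133814 -0.85 (adjusted p = 1.88e-05) and Slc10a2 0.87 (adjusted p = 0.00181). Cyp27a1 was 0.37 (adjusted p = 0.00821), Hsd3b7 0.28 (adjusted p = 0.00167), Slc27a5 0.21 (adjusted p = 2.93e-04), Akr1d1 0.47 by A_66_P114758 (adjusted p = 0.0254) and Cyp7a1 0.57 by A_55_P2600274 (adjusted p = 0.0138). Over all other settings, with single arrays left out and single scan days included, adjusted p ran from 1.74e-09 to 0.0101 for Cyp8b1 and from 3.42e-06 to 0.0261 for Slc10a1 by A_66_P133814, so both were called in each. It ran from 4.38e-05 to 0.170 for Slc10a2, from 0.00193 to 0.452 for Cyp27a1, from 0.00158 to 0.290 for Hsd3b7 and from 1.39e-04 to 0.0670 for Slc27a5. For Akr1d1 it ran from 0.00112 to 0.162 by A_66_P114758 and from 2.69e-04 to 0.243 by A_66_P113096. The fits within single scan days were chosen after seeing the data.

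**Figure D1:**
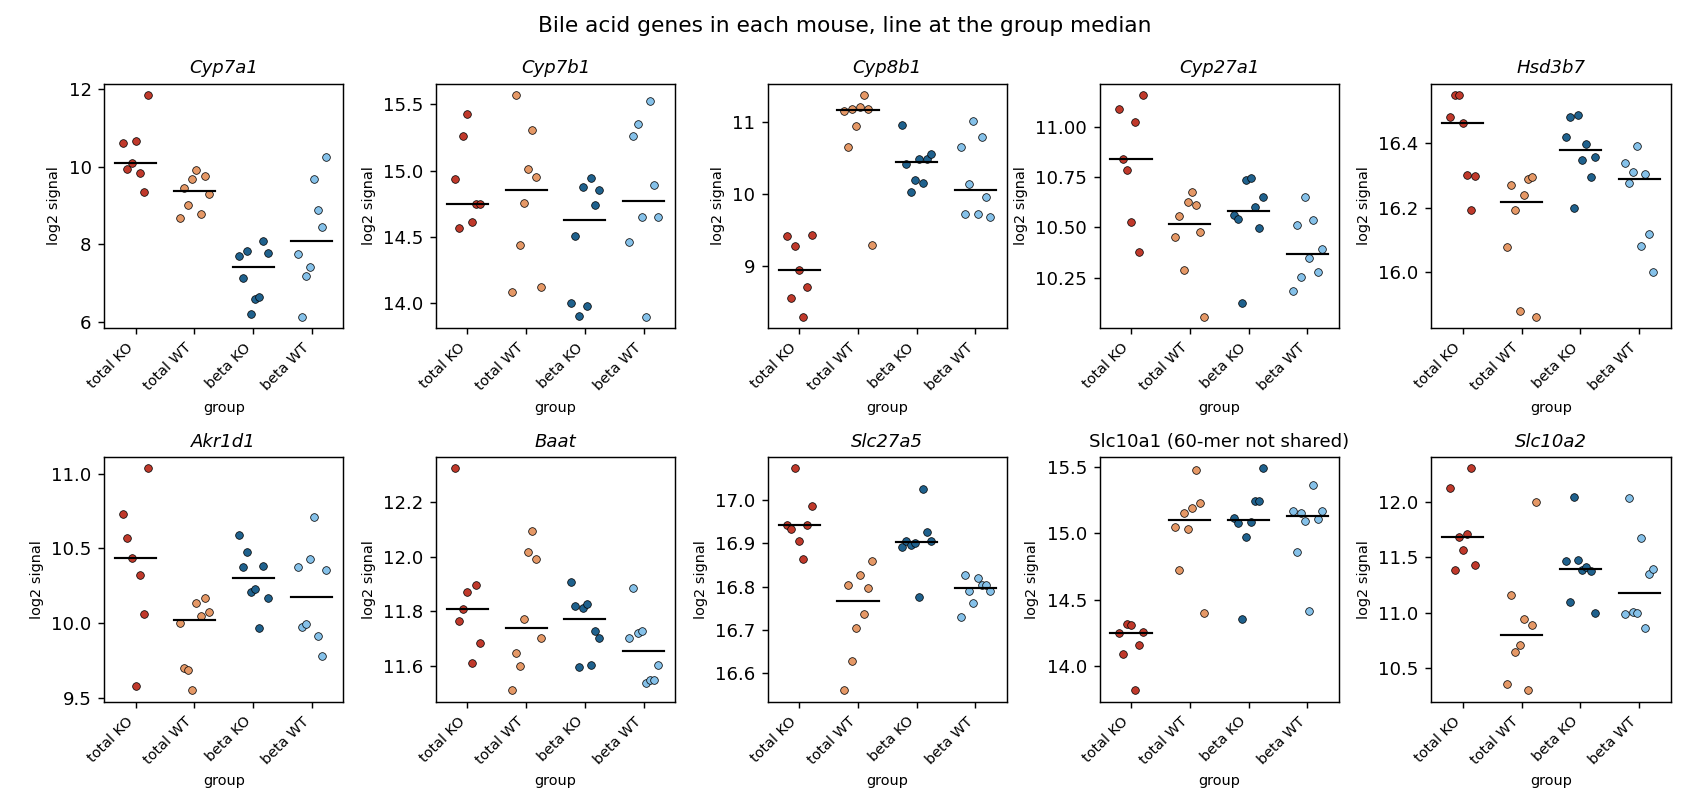
Log2 signal of each of the 10 bile acid genes in every mouse, with the 4 groups on the horizontal axis and a line at the group median. Points are mice, and Slc10a1 is shown by A_66_P133814, the probe that shares no stretch with another gene, for which the 7 total ChREBP-KO mice lie below the 8 WT littermates.

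In the ChREBPβ line no bile acid gene was called. limma made 0 calls among the 10 genes in either direction, beside 0% of all gene names called higher and 0.00417% called lower (0.00277% of probes), which is Mlxipl alone. None of the 10 genes had groups without overlap, beside 0.0334% of all gene names and 0.0222% of all probes. At an unadjusted p under 0.05 limma marked 3 of the 15 probes, both of Cyp7a1 and the one of Slc27a5, against 4.98% of all probes. The exact two-sided Mann-Whitney test marked 3 of the 10 genes at an unadjusted p under 0.05 (Cyp7a1, Hsd3b7 and Slc27a5), against 8.69% of all gene names, and 0 after adjustment, against 0%. For Cyp7a1 this held for the dim probe A_55_P2600274 (exact two-sided p = 0.0379), which was well above background in 2 of 8 mice of each group, and not for the brighter probe (p = 0.195). The median difference of the 10 genes was 0.11, against -0.0035 over all gene names.

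Cyp7a1 stood lower in ChREBPβ-deficient mice, although it missed the threshold. Probe A_52_P84027 read 6.21, 7.42 and 8.08 in deficient mice and 6.14, 8.09 and 10.24 in WT littermates. The WT mice covered the whole span of the deficient mice and reached higher, with 4 WT mice above all of them. The difference was -0.97 (interval -1.83 to -0.10, limma adjusted p = 0.989), and 8 of 8 deficient mice were below the WT median. Within the scan days it was -1.65 and -0.24.

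Slc27a5 read 16.77, 16.90 and 17.03 in ChREBPβ-deficient mice and 16.73, 16.80 and 16.83 in WT littermates, a difference of 0.11 (interval 0.03 to 0.20, limma adjusted p = 0.989, 7 of 8 mice above the WT median). Of the deficient mice, 7 lay above every WT littermate and the other lay inside their span. Hsd3b7 read 16.20, 16.38 and 16.49 beside 16.00, 16.29 and 16.39, a difference of 0.15 (limma adjusted p = 0.989, 7 of 8 mice). Cyp8b1 was 10.03, 10.45 and 10.96 beside 9.68, 10.05 and 11.004, a difference of 0.20 (interval -0.29 to 0.69, limma adjusted p = 0.9998). For Cyp8b1 the deficient mice lay inside the span of the WT mice.

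Slc10a1 was nearly level in this line. Probe A_66_P133814 read 14.35, 15.10 and 15.49 in ChREBPβ-deficient mice and 14.41, 15.13 and 15.37 in WT littermates, a difference of 0.03 (interval -0.26 to 0.32). Slc10a2 read 10.998, 11.40 and 12.05 beside 10.86, 11.18 and 12.04, a difference of 0.12 (interval -0.28 to 0.52). Both spans overlapped almost fully. Cyp7b1 differed by -0.36, Cyp27a1 by 0.16, Akr1d1 by 0.11 and Baat by 0.09, each by its brightest probe and none called.

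**Figure D2:**
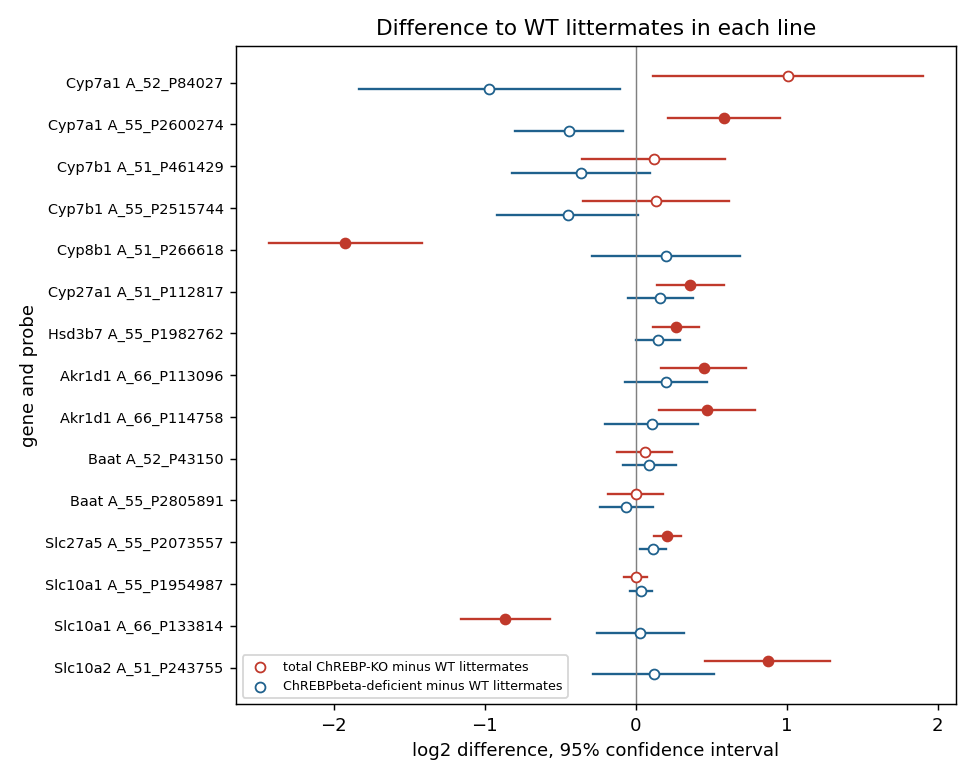
Log2 difference to WT littermates for each of the 15 probes, with the 95% confidence interval of limma as a line, red for the total ChREBP-KO line and blue for the ChREBPβ line. Filled points passed the threshold, which holds for 9 probes in the total line and 0 in the ChREBPβ line.

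Whether the effects differ between the lines was tested directly, as the effect in the total line minus the effect in the ChREBPβ line. Of the 10 genes, Cyp7a1 was called higher, beside 8.82% of all gene names and 7.02% of probes, and Cyp8b1 and Slc10a1 were called lower, beside 9.60% and 8.08%. Of the 15 probes, 5 had an unadjusted p under 0.05, against 27.8% of all probes. For Cyp8b1 the effects differed by -2.12 (interval -2.83 to -1.42, limma adjusted p = 5.69e-05), with 7 of 7 total ChREBP-KO mice below their WT median and 7 of 8 ChREBPβ-deficient mice above theirs. For Slc10a1 by A_66_P133814 the difference of effects was -0.89 (limma adjusted p = 0.00241), with 7 of 7 mice lower in the total line and 3 of 8 higher in the ChREBPβ line. For Cyp7a1 it was 1.97 by A_52_P84027 (limma adjusted p = 0.0252) and 1.03 by A_55_P2600274 (adjusted p = 0.00480), with 6 of 7 and 7 of 7 mice higher in the total line and 8 of 8 and 6 of 8 lower in the ChREBPβ line. A_55_P2600274 met the filter on dim spots only through the WT mice of the total line. In the ChREBPβ line it was well above background in only 2 of 8 deficient mice and 2 of 8 WT littermates. The size of its difference is thus not well measured. It ran from 0.53 to 2.36 over the other settings, and its call was lost within each scan day (adjusted p = 0.111 and 0.109).

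The WT mice of the lines were compared with each other as well, and for Cyp7a1 the result depended on the probe and the setting. The brighter probe had a median of 9.38 in WT littermates of total ChREBP-KO mice and 8.09 in WT littermates of ChREBPβ-deficient mice, a difference of 1.11 (limma adjusted p = 0.0694), which was not called. It was called with Dbp in the model (1.47, adjusted p = 0.0127), without WT replicate 4 of the ChREBPβ line (1.40, adjusted p = 0.0180) and without WT replicate 2 of that line (1.32, adjusted p = 0.0329). The dim probe passed the threshold narrowly, at 0.50 (limma adjusted p = 0.0483, 8 of 8 mice). It was well above background in 7 of 8 WT mice of the total line and in only 2 of 8 of the ChREBPβ line. It met the filter on dim spots only through the WT mice of the total line, the higher group here. No conclusion is drawn from its call for that reason. The call was lost with normexp and without a filter, and over the other settings its difference ran from 0.23 to 1.301. By this probe 1 of the 10 genes was called, beside 9.93% of all gene names (8.12% of probes) called higher and 11.4% (8.92% of probes) called lower. None of the 10 genes had WT groups without overlap, beside 2.67% of all gene names and 1.89% of probes. Leaving out single arrays gave adjusted p between 0.00489 and 0.0963 for the dim probe, and 21 of the 31 arrays ended its call when left out. Within the scan days the brighter probe differed by 0.14 (adjusted p = 0.908) and 2.07 (adjusted p = 0.0200). Cyp8b1 was higher by 0.67 in the WT mice of the total line (adjusted p = 0.0525) and Slc10a2 lower by 0.42 (adjusted p = 0.147), both not called. Without WT replicate 2 these were 0.89 (adjusted p = 0.00193) and -0.58 (adjusted p = 0.0200), which are called. Cyp8b1 was also called with scan day in the model (0.67, adjusted p = 0.0381) and with only probes well above background on all 31 arrays, and in 5 of the 31 fits with 1 array left out. Its adjusted p over all settings ran from 0.00193 to 0.3202. Markers of other cell types differed between these WT mice as well. In the total line 4 of 5 exocrine pancreas markers (list median 0.84) and 2 of 3 red blood cell markers were called higher. Of the bile duct, gut and endothelial lists, Sctr and Fabp2 were called lower and Pecam1 higher. Markers of hepatocytes around the central vein had a summed signal of 194690 to 276830 in the total line and 273160 to 352260 in the ChREBPβ line. Their mean log2 signal was 11.21 to 12.10 and 11.72 to 12.31. The part of these markers in the differences was not tested.

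With scan day in the model the difference of effects was -2.05 for Cyp8b1, -0.85 for Slc10a1 and 1.87 and 0.99 for Cyp7a1, all called. Within scan days the difference of effects for Cyp8b1 was -2.07 on both days (adjusted p = 0.0484 and 0.00306). For Slc10a1 by A_66_P133814 it was -0.68 (adjusted p = 0.274) and -0.998 (adjusted p = 0.00834), and for Cyp7a1 by A_52_P84027 it was 3.04 (adjusted p = 0.0565) and 0.77 (adjusted p = 0.604). Slc10a2 missed the threshold for the difference of effects, at 0.75 (adjusted p = 0.0702). It passed without WT replicate 2 of the total line (0.91, adjusted p = 0.00878) or without ChREBPβ-deficient replicate 2 (0.85, adjusted p = 0.0368). For Cyp27a1, Hsd3b7, Akr1d1 and Slc27a5, which were called in the total line only, the effects were not shown to differ, with differences of 0.20, 0.12, 0.36 and 0.10 and adjusted p between 0.290 and 0.484.

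The daily rhythm of several of these genes makes the clock output gene Dbp a useful companion. By probe A_51_P180492 Dbp was 12.23, 13.54 and 14.04 in total ChREBP-KO mice and 9.05, 10.38 and 10.95 in WT littermates. All KO mice were above all WT mice, with a difference of 3.19 (limma adjusted p = 0.0143, 7 of 7 mice). In the ChREBPβ line Dbp ran from 8.53 to 14.51 in deficient mice and from 8.22 to 15.26 in WT littermates, with a difference of 0.61 (limma adjusted p = 0.9998). In those WT mice Dbp fell into separate clusters, 4 mice from 8.22 to 10.05 and 4 mice from 13.71 to 15.26. Since Dbp separated the groups of the total line, genotype and the state of the clock cannot be told apart there.

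The 4 WT mice of the ChREBPβ line with low Dbp had Cyp7a1 signals of 7.74, 6.14, 7.18 and 7.42, in order of rising Dbp. The 4 with high Dbp had 9.69, 8.89, 8.44 and 10.24. For Cyp8b1 the same mice read 10.64, 9.72, 10.14 and 11.004 with low Dbp and 9.72, 10.79, 9.96 and 9.68 with high Dbp. Cyp7a1 was thus higher in each mouse with high Dbp, while Cyp8b1 overlapped. The mice with high Dbp carry replicate numbers 1 to 4 and those with low Dbp 5 to 8, so Dbp and number cannot be told apart. Replicates 2, 3, 4 and 5 were scanned on day 1, and replicates 1, 6, 7 and 8 on day 2. No test was made between these mice, and no correlation is given in this group because of the clusters.

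The 8 ChREBPβ-deficient mice had Cyp7a1 signals of 7.70, 7.14, 7.84, 6.21, 6.60, 6.64, 8.08 and 7.78, in order of rising Dbp. For Cyp7a1 in this group r was -0.19 (exact two-sided permutation p = 0.6355, adjusted p = 0.879) and rho 0.19 (exact permutation p = 0.665, adjusted p = 0.997), with r of -0.05 and rho of 0.31 without the 2 mice farthest from the median of Dbp. The 7 total ChREBP-KO mice had 10.61, 9.93, 10.09, 10.65, 9.83, 9.36 and 11.85 in the same order. Their r was 0.06 (exact permutation p = 0.885, adjusted p = 0.948) and rho 0 (exact permutation p and adjusted p of 1), with r of -0.43 and rho of -0.60 without the 2 farthest mice. Neither group showed a relation of Cyp7a1 to Dbp that passed the test.

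Within the 3 groups whose Dbp values were not in clusters, 30 relations of the 10 genes to Dbp were computed, each with an exact two-sided permutation test. None passed after Benjamini-Hochberg adjustment by Pearson r, with 2 of 30 at an unadjusted p under 0.05 and a smallest adjusted p of 0.444. For Cyp7a1 in the WT littermates of total ChREBP-KO mice r was 0.37 (exact permutation p = 0.361, adjusted p = 0.879) and rho 0.36 (exact permutation p = 0.389, adjusted p = 0.856), and r without the 2 mice farthest from the median of Dbp was 0.04 and rho 0.09. For Akr1d1 in ChREBPβ-deficient mice r was -0.74 (exact permutation p = 0.0349, adjusted p = 0.444) and rho -0.64 (exact permutation p = 0.0962, adjusted p = 0.577), with r of -0.62 and rho of -0.49 without the 2 farthest mice. For Baat in the WT littermates of total ChREBP-KO mice r was 0.75 (exact permutation p = 0.0397, adjusted p = 0.444) and rho 0.67 (exact permutation p = 0.0831, adjusted p = 0.577), with r of 0.55 and rho of 0.26 without the 2 farthest. For Hsd3b7 in total ChREBP-KO mice r was -0.68 (exact permutation p = 0.0776, adjusted p = 0.444) and rho -0.82 (exact permutation p = 0.0341, adjusted p = 0.577), with r of -0.94 and rho of -0.90 without the 2 farthest mice. In ChREBPβ-deficient mice r went from -0.12 to -0.94 for Slc10a2 and from -0.44 to 0.74 for Cyp8b1 without the 2 farthest. In total ChREBP-KO mice r went the other way for Slc10a2, from -0.20 to 0.86, and from -0.78 to 0.15 for Baat. Over all 30 relations without the 2 farthest mice, 5 had an unadjusted p under 0.05 and none passed (smallest adjusted p = 0.125). Slc10a1 entered these 30 relations by its brighter probe A_55_P1954987. With A_66_P133814 in its place, an alternative chosen after seeing the data, none passed either (smallest adjusted p = 0.533). By that probe Slc10a1 in ChREBPβ-deficient mice had r of 0.32 (exact permutation p = 0.452, adjusted p = 0.917) and rho of 0.67 (exact permutation p = 0.0831, adjusted p = 0.481). Without the 2 farthest mice r was 0.99 (exact permutation p = 0.00278, adjusted p = 0.0625) and rho 0.94 (exact permutation p = 0.0167, adjusted p = 0.250), over 6 mice. With 3 to 5 arrays of a group on a scan day, values within days are too few to give.

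With Dbp as a term of the limma model, 7 of the 10 genes were called in the total line, all but Cyp7a1, Cyp7b1 and Baat. Cyp8b1 was then -1.74 (adjusted p = 3.40e-05), Slc10a1 by A_66_P133814 was -0.92 (adjusted p = 1.61e-04) and Slc10a2 was 0.87 (adjusted p = 0.00775). Cyp7a1 by A_52_P84027 dropped from 1.01 to 0.32 (adjusted p = 0.665) in the total line, and its difference of effects dropped from 1.97 to 1.42 (adjusted p = 0.0991). The model has 1 slope on Dbp for all 4 groups, and Dbp did not overlap between the groups of the total line. This fit thus cannot separate genotype from Dbp in that line, for the genes that stayed called or for Cyp7a1. By the dim probe A_55_P2600274 the difference of effects for Cyp7a1 stayed called (0.92, adjusted p = 0.0165), though this probe was well above background on only 15 of 31 arrays. It met the filter on dim spots only through the WT mice of the total line. Its call therefore does not show that the difference of Cyp7a1 held with Dbp in the model.

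**Figure D3:**
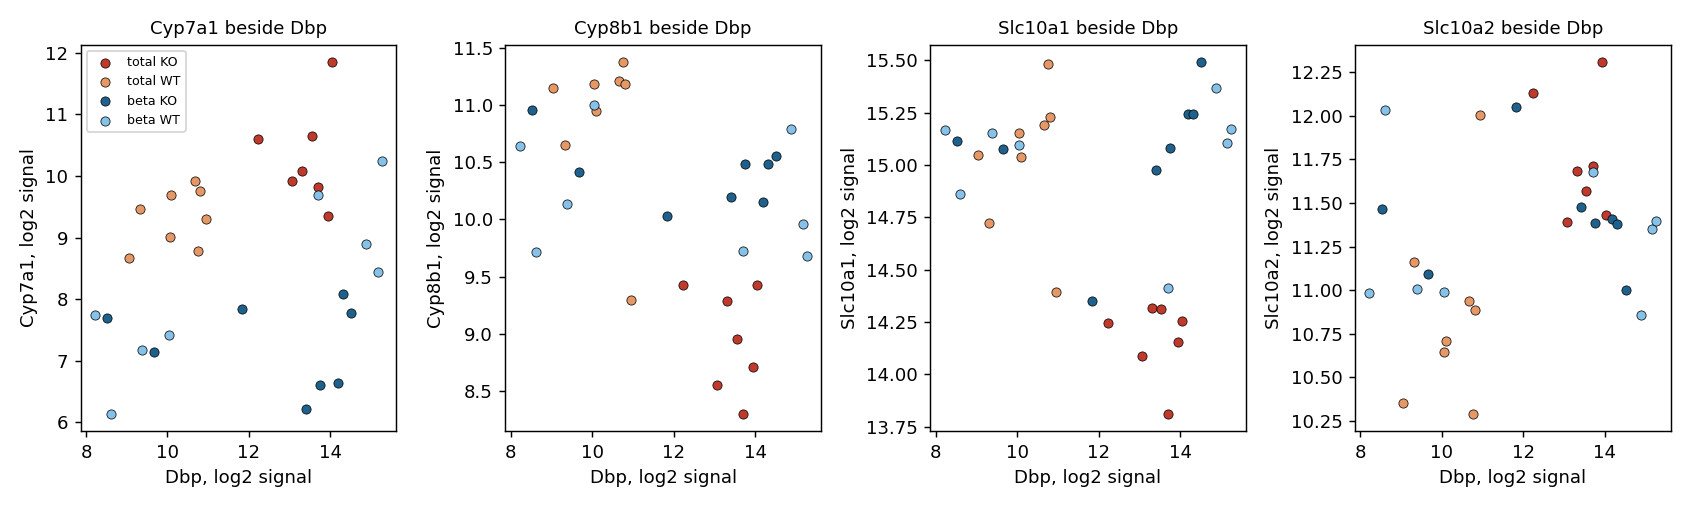
Log2 signal of Cyp7a1, Cyp8b1, Slc10a1 (A_66_P133814) and Slc10a2 on the vertical axis against Dbp on the horizontal axis, 1 point per mouse, coloured by group. Total ChREBP-KO mice lie between 12.23 and 14.04 in Dbp and their WT littermates between 9.05 and 10.95, while both groups of the ChREBPβ line span low and high Dbp.

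Some mice stood apart in markers of other cell types, and their bile acid genes are given beside that. Of 9 markers of the exocrine pancreas 5 were measured, and Ctrb1, Amy2a5 and Cela3b fell in the total line. Amy2a5 by A_55_P1996314, the probe that was called, read 13.62, 11.84 and 12.21 in WT replicates 2, 7 and 8 and between 8.36 and 8.74 in the other 5 WT mice. The mean log2 signal of the 5 markers was 12.25, 11.15 and 11.28 in those mice, 9.53 to 9.85 in the other 5 WT mice and 9.47 to 10.18 in KO mice. The summed signal, with Cela1 as the brightest probe, was 34862, 28577 and 29892 in those mice, 18070 to 27865 in the other 5 WT mice and 14698 to 35844 in KO mice. In KO replicate 5 the gut and bile duct markers Vil1, Krt19, Epcam and Cftr read 10.66, 11.03, 8.79 and 9.65, against at most 6.73, 8.55, 6.56 and 6.62 in the other KO mice. The mean log2 signal of the 7 bile duct markers was 8.73 in that mouse and 6.86 to 8.13 in the other KO mice. Their summed signal, with Spp1 as the brightest probe, was 7151.5 in that mouse and 3370.9 to 12274 in the others. In WT replicates 2, 7 and 8 Cyp8b1 read 9.30, 11.18 and 11.21, Slc10a1 by A_66_P133814 14.39, 15.23 and 15.19, and Slc10a2 12.004, 10.88 and 10.94. In KO replicate 5 Cyp8b1 read 8.95, Slc10a1 by A_66_P133814 14.31, Slc10a2 11.57 and Akr1d1 9.58. Other mice differed in the 3 adipocyte markers measured, of which none was called, with a mean log2 signal of 8.95 in KO replicate 6 (other KO mice 6.24 to 6.62) and of 8.60 and 8.23 in WT replicates 5 and 2 (other WT mice 6.19 to 6.48). This mean ran from 7.19 to 8.72 in ChREBPβ-deficient mice and from 6.71 to 8.10 in their WT littermates. Leaving mice out by these markers was not tested. Without WT replicates 2, 7 and 8 and KO replicate 5, an alternative chosen after seeing the data, the same 8 bile acid genes were called in the total line, with Cyp8b1 at -2.11 (adjusted p = 2.60e-07), Slc10a1 by A_66_P133814 at -0.94 (adjusted p = 9.03e-05) and Slc10a2 at 1.14 (adjusted p = 1.66e-04). Akr1d1 rose more without these mice, by 0.73 for A_66_P114758 and 0.71 for A_66_P113096, against 0.47 and 0.45 with all mice. The difference of effects was then called for 5 genes in place of 3, with Slc10a2 (1.02, adjusted p = 0.0104) and Akr1d1 (0.62, adjusted p = 0.0422) added.

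The mice that share the replicate number 2 had low Slc10a1 and high Slc10a2 in 3 groups. By A_66_P133814 Slc10a1 was 14.39 in WT replicate 2 of the total line, 14.35 in ChREBPβ-deficient replicate 2 and 14.41 in their WT replicate 2, the lowest of each group. Slc10a2 was 12.004, 12.05 and 11.68 in these mice, the highest of the first and second group and below only 1 mouse of the third. In total ChREBP-KO replicate 2 Slc10a1 was 14.09, inside the span of its group, and Slc10a2 was 11.39, the lowest of that group. The labels do not say what a number stands for.

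Zonation markers moved in the total line as well. Of 7 markers of hepatocytes around the central vein, 4 rose (Cyp2e1, Cyp1a2, Lgr5 and Oat) and none fell, while of 7 markers of hepatocytes around the portal vein Cps1 rose and Sds fell, where 17.3% of all gene names rose and 17.1% fell. The mean log2 signal of the pericentral markers was 11.76, 12.57 and 12.66 at the lowest, median and highest in total ChREBP-KO mice and 11.21, 11.85 and 12.10 in WT littermates, and the groups overlapped. The summed signal, with Cyp2e1 as the brightest probe, was 319820, 393310 and 415360 beside 194690, 249025 and 276830. In WT littermates of ChREBPβ-deficient mice the mean was 11.72, 12.10 and 12.31 and the summed signal 273160, 300240 and 352260. Of the other lists, 1 of 7 bile duct markers rose (Epcam by 0.97, limma adjusted p = 0.0101, 7 of 7 mice) with a list median of 0.44, and 2 of 5 stellate cell markers rose (Dcn by 0.40 and Reln by 0.80). Of 3 gut markers measured on a list of 6, Vil1 rose by 1.55 (limma adjusted p = 0.00798, 7 of 7 mice) and Apoa4 fell by 2.41. For Vil1 and Epcam, KO replicate 5 stood far above the other KO mice, as given above. The size of both rises thus rests in part on that mouse. The part of these markers in the results for the bile acid genes, Slc10a2 included, was not tested.

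Other enzymes of bile acid synthesis moved little in the total line. Of 12 on the list, 5 rose and 1 fell, beside 17.3% of all gene names called higher and 17.1% called lower, with a median difference of 0.11, beside 0.0078 over all gene names. Cyp2c70, which makes muricholic acids in the mouse, read 15.90, 16.16 and 16.50 in KO mice and 15.24, 15.82 and 16.11 in WT littermates, a rise of 0.44 (limma adjusted p = 0.0359, 7 of 7 mice). Slc27a2, an acyl-CoA synthetase, rose by 0.40 (limma adjusted p = 5.93e-04, 7 of 7 mice). Akr1c6, Hsd17b4 and Acot8 rose by 0.25, 0.28 and 0.17, and Cyp46a1 fell by 0.37. In the ChREBPβ line none of the 12 was called, and neither was any in the difference of effects.

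Of 15 other transporters of bile acids and bile, 14 were measured, and 6 rose and 3 fell in the total line, where all gene names gave 17.3% and 17.1%. The median difference was 0.29, against 0.0078. Slc51b, a subunit of the basolateral exporter, read 5.08, 5.98 and 6.18 in KO mice and 6.35, 7.38 and 8.24 in WT littermates, a fall of 1.48 (limma adjusted p = 4.17e-06, 7 of 7 mice). Abcc3, a basolateral pump, read 13.63, 14.05 and 14.16 beside 12.13, 12.77 and 13.49, a rise of 1.201 (limma adjusted p = 4.90e-08, 7 of 7 mice). In both genes the groups did not overlap, which held for 5 of the 14 genes, beside 9.20% of all gene names. Abcc2 and Slco1b2 rose by 0.65 and 0.76, also without overlap, and Slco1a4, Abcc4 and Abcg2 by 1.12, 0.52 and 0.34. By its brightest probe Slco1a4 had a median of 9.42 in KO mice and 8.19 in WT littermates. In ChREBPβ-deficient mice and their WT littermates it was 9.72 and 9.58, so the KO mice did not stand above the other line. Slco2b1 fell by 0.54 without overlap by A_52_P255782 but not by its second probe, and Abcb11, the canalicular bile salt pump, by 0.21. The effects differed between the lines for Slc51b (-1.47, limma adjusted p = 8.88e-04), Slco2b1 (-0.65), Abcb11 (-0.33), Abcc3 (0.865), Slco1b2 (0.60) and Abcc2 (0.56), which is 6 of 14, beside 18.3% of all gene names. Of these, Abcc3 (-0.86, limma adjusted p = 3.27e-05) and Slco2b1 (-0.34, adjusted p = 1.88e-04) were also lower in the WT mice of the total line than in those of the ChREBPβ line. Abcc3 had a median of 12.77 in the former and 13.63 in the latter. The Slc51b signals of KO mice were low and overlapped those of the dim Cyp7a1 probe A_55_P2600274. In the total line that probe was well above background in 4 of 7 KO and 7 of 8 WT mice. Whether Slc51b was well above background in KO mice is not given here. The sizes of the Slc51b fall and of its difference of effects are thus uncertain.

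Of 22 regulators, 20 were measured, and 3 rose and 4 fell in the total line. That is 7 of 20 called, where 33.9% of all gene names were called, and the median difference of 0.03 stands beside 0.0078. Nr1i3, the receptor CAR, read 10.58, 11.65 and 12.07 in KO mice and 10.0999, 10.42 and 10.56 in WT littermates, a rise of 1.17 (limma adjusted p = 1.05e-06, 7 of 7 mice). Nr1h4 fell by 1 of its probes, A_55_P2369474, by 0.30 (limma adjusted p = 0.0279, 7 of 7 mice). Nr0b2, the repressor SHP that FXR induces, read 8.88, 9.57 and 9.76 beside 8.85, 9.42 and 9.67 and was not called (0.16, limma adjusted p = 0.623). Fgfr4 and Klb, the receptor and coreceptor for the gut hormone FGF15, rose by 0.25 and 0.42, each by 1 of its probes, and Gpbar1 and Zfp36l1 fell by 0.41 and 0.42. By its brightest probe Klb had a median of 9.96 in KO mice and 9.58 in WT littermates. In ChREBPβ-deficient mice and their WT littermates it was 9.97 and 9.95, so the KO mice did not stand above the other line. The effects differed between the lines for Nr1i3 (0.98) and Zfp36l1 (-0.56), among others.

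Of 18 clock and output genes, 17 were measured, and 8 rose and 5 fell in the total line, again beside 17.3% and 17.1% of all gene names, with none called in the ChREBPβ line. The median difference was -0.14, against 0.0078. Bhlhe40 fell by 2.08 (limma adjusted p = 2.36e-08, 7 of 7 mice) and Per1 rose by 1.496 (adjusted p = 1.57e-04, 7 of 7 mice), and both effects differed between the lines. Arntl, Cry1 and Npas2 also fell, and Nr1d1, Nr1d2, Tef, Ciart, Cry2 and Per3 rose beside Dbp.

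Likeness was read from the values of the 31 mice after each group mean was taken off, with 1 probe per gene. Of 23965 genes compared, those most like Cyp7a1 were BC026585, Rhbdd2 and Nrep, with Pearson r of 0.754, 0.7497 and 0.707. The genes most like Cyp7b1 were Ces4a, Ccdc33 and Hao1, at 0.872, 0.872 and 0.858, and those most like Cyp8b1 were Aagab, Trub1 and Bloc1s5, at 0.808, 0.805 and 0.805. These genes were picked as the highest of all, so no p is given.

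Promoter sequence was at hand for 6 of the 10 genes, from RefSeq on build GRCm38.p6, with 300 bases around the start, and 7 promoters in all since Slc10a1 has 2. Cyp7a1, Cyp7b1, Baat and Slc27a5 had no entry in the set of promoters used here. Both strands were searched for TTATGTAA, a word bound by Dbp and its relatives, for CACGTG, the E-box bound by clock factors and part of the element bound by ChREBP, and for AGGTCA, the half-site of many nuclear receptors. TTATGTAA was in none of the 7 promoters and in 0.938% of all 32851 promoters, CACGTG in none and in 7.15%, and AGGTCA in 16.3%. Of the 7 promoters of the 10 genes, 2 held AGGTCA, that of Akr1d1 and that of the second start of Slc10a1, while that of its first start held none. A match is a description of letters, and no match speaks only for this window. The promoters of Cyp8b1 (chr9:121916256-121916555, minus strand) and of the second start of Slc10a1 (chr12:80968030-80968329, minus strand) are shown because these 2 genes fell together, and that of Slc10a2 (chr8:5105238-5105537, minus strand) because it rose, with AGGTCA in capitals.
Cyp8b1: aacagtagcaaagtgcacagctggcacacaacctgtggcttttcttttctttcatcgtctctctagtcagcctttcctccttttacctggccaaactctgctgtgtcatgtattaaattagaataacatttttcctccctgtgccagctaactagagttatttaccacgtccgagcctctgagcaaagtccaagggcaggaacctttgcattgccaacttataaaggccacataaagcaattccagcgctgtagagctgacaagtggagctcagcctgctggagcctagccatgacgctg
Slc10a1: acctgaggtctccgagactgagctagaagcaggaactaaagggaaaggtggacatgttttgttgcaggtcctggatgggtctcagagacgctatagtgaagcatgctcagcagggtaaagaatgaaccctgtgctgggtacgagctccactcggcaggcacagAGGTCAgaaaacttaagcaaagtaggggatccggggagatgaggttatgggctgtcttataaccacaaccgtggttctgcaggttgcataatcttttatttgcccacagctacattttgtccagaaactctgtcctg
Slc10a2: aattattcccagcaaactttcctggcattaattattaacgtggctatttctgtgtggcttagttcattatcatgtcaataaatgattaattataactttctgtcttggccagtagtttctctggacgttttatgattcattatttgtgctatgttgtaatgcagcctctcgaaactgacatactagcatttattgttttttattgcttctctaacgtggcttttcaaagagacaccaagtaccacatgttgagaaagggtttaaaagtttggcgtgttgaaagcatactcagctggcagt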

How the data were processed

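The authors deposited scanner files with the intensity of each spot, read by Feature Extraction 10.10.1.1 according to the submitters' notes and not scaled between arrays. A table of normalized log2 values deposited by the authors was made by quantile normalization of median pixel intensities of spots that passed their weights. Here the log2 median intensity was taken without background subtraction for spots that were found, positive and clear of background on 26 or more arrays in all or on 6 or more within a single group. Values were quantile normalized over 31 arrays, and the median was taken over repeated spots of a probe, which left 36059 probes. The 4 groups entered 1 model in limma 3.58.1 (R 4.3.3), with Benjamini-Hochberg adjustment over all probes.

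The 10 genes and the lists of other pathway genes, clock genes and cell markers were chosen with earlier results of these data known. Genes named are all 10, Mlxipl, Dbp, most called genes of the lists, the markers in which a mouse stood apart and the 3 genes most like each of Cyp7a1, Cyp7b1 and Cyp8b1. Nr0b2 is named though it was not called, and it was chosen after its values were seen. Arrays lie on 15 slides with at most 3 arrays each, too few for values within a slide, and were scanned on 2 days that both hold all 4 groups.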

Additional observations from a re-analysis of the deposited data

Results flagged for a closer look

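Of 60 groups of values (15 probes in 4 groups), 9 held a mouse far from the others of its group, where chance gives about 1 in 20. The WT mouse with replicate number 2 in the total line had Cyp8b1 at 9.30, with the other 7 between 10.65 and 11.37. ChREBPβ-deficient replicate 2 stood apart for 3 genes, with Cyp27a1 at 10.12 (others 10.50 to 10.75), Slc10a2 at 12.05 (others 10.998 to 11.48) and Slc10a1 by A_66_P133814 at 14.35 (others 14.98 to 15.49). Baat in total ChREBP-KO mice was 12.32 in replicate 8 by A_52_P43150 and 9.70 in replicate 1 by A_55_P2805891, a different mouse for each probe. The shared-sequence probe of Slc10a1, A_55_P1954987, had a mouse apart in 3 groups, WT replicate 5 of the total line at 18.14, ChREBPβ-deficient replicate 8 at 18.37 and their WT replicate 1 at 18.10, all within a narrow band.

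The effect of the total knockout and that of the ChREBPβ deficiency differed, by limma's test of the difference, for Cyp8b1 (-2.12), for Cyp7a1 by A_52_P84027 (1.97) and by A_55_P2600274 (1.03), and for Slc10a1 by A_66_P133814 (-0.89).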

How the results depend on the processing

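The count of called genes in the total line was 8 and stayed between 6 and 8 under all settings with both scan days, including each array left out (8 in each case), normexp, no filter, the deposited values, slide and scan day in the model. Within a scan day alone it was 5 and 4. The ChREBPβ line kept 0 calls, other than 3 genes by the unadjusted exact two-sided Mann-Whitney test. The difference of effects kept its 3 genes with other processing, filters, blocks or Dbp in the model (with Dbp, Cyp7a1 by its dim probe only), but gave 5 without the 4 mice that stood apart in several markers of other cell types, 1 on scan day 1 alone (Cyp8b1), 2 on scan day 2 alone (Cyp8b1 and Slc10a1), and 3 to 4 with single arrays left out. For the WT mice of the lines the count of 1 was 0 with normexp, 0 without a filter, 2 with scan day as a block, 2 without the 4 mice, 0 on scan day 1 alone and 0 to 2 with single arrays left out. With only probes well above background on all 31 arrays the count was 1 again, but for Cyp8b1. No relation to Dbp passed with Nr1d1 in its place (0) or without the 2 farthest mice (0). Nor did any with the other Slc10a1 probe, A_66_P133814, with all mice (0) or without the 2 farthest (0). For Nr1d1, WT littermates of ChREBPβ-deficient mice replaced total ChREBP-KO mice, whose Nr1d1 values were in clusters. In those WT mice r was 0.73 for Cyp7a1 (exact permutation p = 0.0402, adjusted p = 0.603). For Baat it was -0.83 (exact permutation p = 0.00851, adjusted p = 0.255). No called probe changed direction. The cause was not tested, beyond fewer arrays within a day.

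With the replicate number as a block (replicate block) the counts were 8, 0, 3 and 2 for the total line, the ChREBPβ line, the difference of effects and the WT mice. The 2 were Cyp8b1 (adjusted p = 0.0327) and Cyp7a1, whose brighter probe was called as well (adjusted p = 0.0297). The labels do not say that a number marks a shared litter, batch or day, and in no pair of groups did every pair of mice with a shared number correlate over 0.1, so the mice were not treated as paired. Over 45 such pairs the correlation of deviations ran from -0.215 to 0.533 with a median of 0.0229, and 10 of 45 correlated best with their own number. Between ChREBPβ-deficient mice and their WT littermates 6 of 8 pairs were over 0.1 and 4 of 8 correlated best with their own number, a hint from the data and not from the design. Number 2 gave 0.421, 0.364 and 0.533 between the 3 groups other than total ChREBP-KO, and -0.215, -0.168 and -0.0172 with it. Signal over background limits the dim probe of Cyp7a1 most, which was well above background on 15 of 31 arrays.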
